A study of Mus musculus with 2 samples.

Results

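The probes described here are those that the array design names only by a genomic interval, such as chr19:5801802-5802597 followed by F or R for the forward or reverse strand. They are the long intergenic non-coding RNA content of an Agilent mouse expression array. Every probe that was no control and whose name held such an interval was taken, which gave 16194 of 55681 probes. They cover 3540 intervals, or 4607 intervals when the strands are counted apart, with up to 10 probes for an interval on a strand and 1 spot a probe. All coordinates below are those of mouse build mm9, and the array files do not pair the intervals with gene names.

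RNA from mouse heart was measured on 2 Cy3 arrays, 1 a group. The control had the C57BL6 background. The other heart, called WRN-K577M here, came from the transgenic stock 5025Wcl/Mmmh with the transgene CAG-WRN*K577M (stock prefix B6.Cg-Tg) on the same background. WRN is the RecQ helicase that is lost in Werner syndrome, a disease of early ageing, and the K577M change removes its helicase activity. The CAG promoter drives the transgene in most tissues, so heart muscle was not singled out. What ND in both titles stands for, the age and sex of the mice, and whether an array holds 1 heart or a pool are not given in the sources used here. A single array a group allows no test, so each ratio below compares these 2 arrays with no replicate check.

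Long intergenic RNAs are transcribed from DNA between protein-coding genes, and many are spliced and polyadenylated like messenger RNA. As a class they are known for low levels and for strong differences between tissues. Some stay at chromatin or in nuclear bodies and act there, and for most no function is known. Several are known in heart muscle, where they bear on chromatin remodelling and on the fetal gene programme.

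The level of a probe is log2 of the scanner's processed signal less the 75th percentile of the non-control probes on that array, so a level of 0 is as bright as that percentile. That percentile was a signal of 256 in the control and 210 in WRN-K577M. A probe is called measured when the scanner software flagged it as well above background on both arrays. Of 12 cardiomyocyte marker genes, all 12 were measured on both arrays, with a log2 summed level of 12.07 in the control and 12.22 in WRN-K577M.

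Most of the interval probes gave no signal well above background in either heart. Of the 16194 probes, 5989 (37.0%, 95% exact binomial interval 36.2 to 37.7%) gave signal in the control and 5677 (35.1%, 34.3 to 35.8%) in WRN-K577M. Both arrays detected 5314 (32.8%, 32.1 to 33.5%), the control array alone 675, the WRN-K577M array alone 363, and neither 9842 (60.8%). These binomial intervals cover counting error over probes only. They take each probe as independent, although up to 10 share an interval and strand, so they may be too narrow. They are no comparison of the hearts. With the scanner's weaker flag, for a signal that is positive and significant, the order of the hearts turned, with 63.5% in the control and 65.7% in WRN-K577M. RefSeq probes were measured nearly 2 times as often, at 65.1% of 28290. Those of RefSeq non-coding transcripts (accessions that start with NR) were close to the interval probes, at 35.7% of 1559.

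At the scale of intervals, 2592 of 4607 (56.3%) had at least 1 measured probe. Several probes of the same interval and strand often differed in whether they were seen: among intervals with 2 or more probes, every probe was measured in 535 and some but not every probe in 1803. Among intervals with 3 probes on a strand, 46.5% had no measured probe, 24.4% had 1, 12.2% had 2 and 16.9% had all 3. Chromosome 2 had the highest share of probes measured, at 39.8%, and chromosome 9 the lowest, at 22.8%. Interval length made little difference, with 32.4 to 33.3% of probes measured in each of 4 equal groups of lengths.

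Where they were measured, the interval probes were dim. Their median level was -2.27 in the control and -2.15 in WRN-K577M, against 0.36 and 0.35 for RefSeq probes, and -1.48 and -1.42 for RefSeq non-coding transcripts. Signal also depends on the probe, so levels of different probes are not read as amounts of RNA. The upper tail was long, with 5% of measured interval probes above 2.43 in the control and 2.57 in WRN-K577M. The software's own error of a log2 ratio had a median of 0.23 for interval probes and 0.20 for RefSeq probes.

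**Figure D1:**
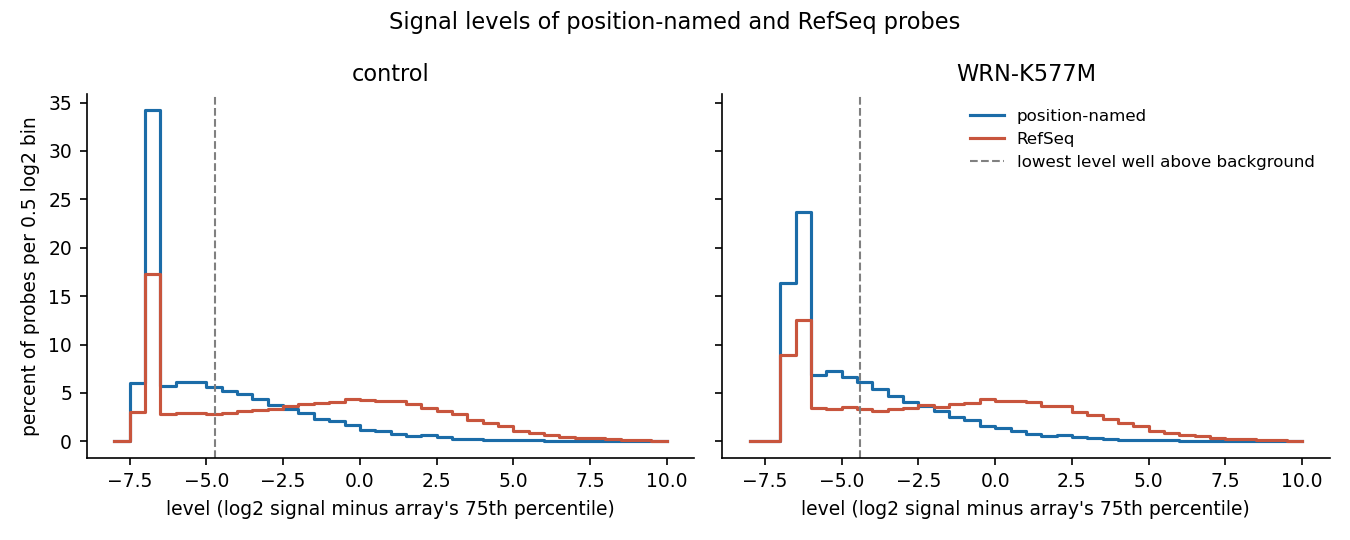
Levels of the interval probes (blue, position-named in the legend) and of RefSeq probes (red) in the control and in WRN-K577M, detected or not (x axis, log2 of signal relative to the 75th percentile; y axis, percent of probes of that kind in each bin of 0.5). The dashed line is the lowest level flagged well above background, -4.73 and -4.42, and more of the interval probes than of the RefSeq probes pile up to its left.

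The brightest interval of all was chr19:5801802-5802597 on the reverse strand. Its 3 probes read 9.11 in the control and 9.36 in WRN-K577M, then 7.67 and 7.80, then 6.53 and 6.73. All 3 were a little higher in WRN-K577M, by 0.13 to 0.26. The 3 reverse-strand probes of chr17:17481706-17482457 read 8.0 in the control and 7.83 in WRN-K577M, 7.44 and 7.28, and 6.75 and 6.68. All 3 of these were a little lower in WRN-K577M. The second brightest probe of all, on the reverse strand of chr2:168804720-168854970, read 8.84 and 8.71, while another probe of that interval read -3.95 and -3.96. Probes of an interval also differed at chr14:78924115-78938125, forward strand. There 1 of 7 probes read 7.76 in the control and 7.82 in WRN-K577M, and the other measured probe read -4.40 and -4.28. Single probes spoke for chr4:141527564-141547339 forward (7.65 and 7.94) and for chr4:33364774-33364898 reverse (7.74 and 7.73). On the X chromosome, 2 reverse-strand probes of chrX:138967807-138968413 read 7.36 and 7.47, and 6.0 and 6.04, and the remaining probe of the interval was not detected. At chr12:73838608-73862621 a probe of each strand was bright: 7.40 and 7.44 on the forward strand, 7.42 and 7.47 on the reverse. None of the 10 brightest probes differed between the hearts by more than 1.22-fold.

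Between the hearts, the interval probes leaned slightly towards higher values in WRN-K577M. Their median log2 ratio (WRN-K577M minus control) was 0.14, with quartiles of -0.09 and 0.35, and 3536 of 5314 (66.5%) lay above 0. Over all 28654 measured probes the median was 0.06 and 57.6% lay above 0. The lean was not particular to interval probes. Probes that were neither RefSeq nor interval probes gave 0.14 and 65.9% of 4930, and RefSeq non-coding transcripts 0.14 and 65.1% of 556. RefSeq coding transcripts (accessions that start with NM) gave 0.02 and 52.4% of 17854. The size of the interval probes' lean depends on the scaling between the arrays: their median was 0.07 relative to all measured probes and 0.09 in the authors' deposited matrix. Most interval probes differed little, with 84.8% within 1.5-fold.

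Past 2-fold, higher values outnumbered lower ones. Of the 5314 measured interval probes, 155 (2.92%) were higher in WRN-K577M by 2-fold or more and 44 (0.828%) were lower by as much. With the normexp background correction, which draws dim probes together, the counts were 21 (0.395%) and 7 (0.132%). The background over all measured probes was 2.19% higher and 2.51% lower, and over measured RefSeq probes 1.91% and 3.16%. Probes that were neither RefSeq nor interval probes gave 2.45% and 1.93%. Dim probes scatter more, so RefSeq probes were also weighted to the levels of the interval probes in 20 bins of mean level. Of these equally dim RefSeq probes 2.49% were higher and 4.06% lower, with a median ratio of 0.03. The higher share of the interval probes was thus near the background, and their lower share was below it. RefSeq non-coding transcripts, also weighted by mean level, gave 4.93% higher and 2.21% lower, with a median ratio of 0.15 from only 556 measured probes. No test of these differences was made, as probes of 1 pair of arrays are not replicates.

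The lower share was under that of RefSeq probes in each range of brightness. Among interval probes with a mean level under -3, 0.521% were lower, against 3.24% of RefSeq probes in that range. From -3 to -2 the shares were 1.13 and 6.67%, from -2 to -1 1.48 and 5.01%, and from -1 to 0 0.817 and 4.06%. Above 0 they were 0.344 and 2.37% up to a level of 2, and 0.549 and 1.37% beyond it, resting on 2 interval probes in each. RefSeq non-coding transcripts alone gave 0.781% of 128 probes under -3 and 0% of 68 from 0 to 2. In the other ranges they gave 1.94 to 3.96%. The higher shares were 3.65% of interval probes against 3.57% of RefSeq probes under -3, 4.16 against 2.67% from -3 to -2, and 1.60 against 1.94% from -2 to -1. Above that they were 2.12 against 1.63% up to 0, 1.38 against 1.37% up to 2, and 2.47 against 1.65% beyond. The median ratio of the interval probes fell with brightness, from 0.22 under -3 to 0.08 above 2. That of RefSeq probes was 0.08 and 0.04 in these ranges. Equal signals on both arrays give a ratio above 0, as the scaling percentile was 256 in the control and 210 in WRN-K577M. Without the filter on detection, medians were 0.35 for interval probes and 0.33 for equally dim RefSeq probes. What the scaling adds to the ratios of dim probes was not tested.

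**Figure D2:**
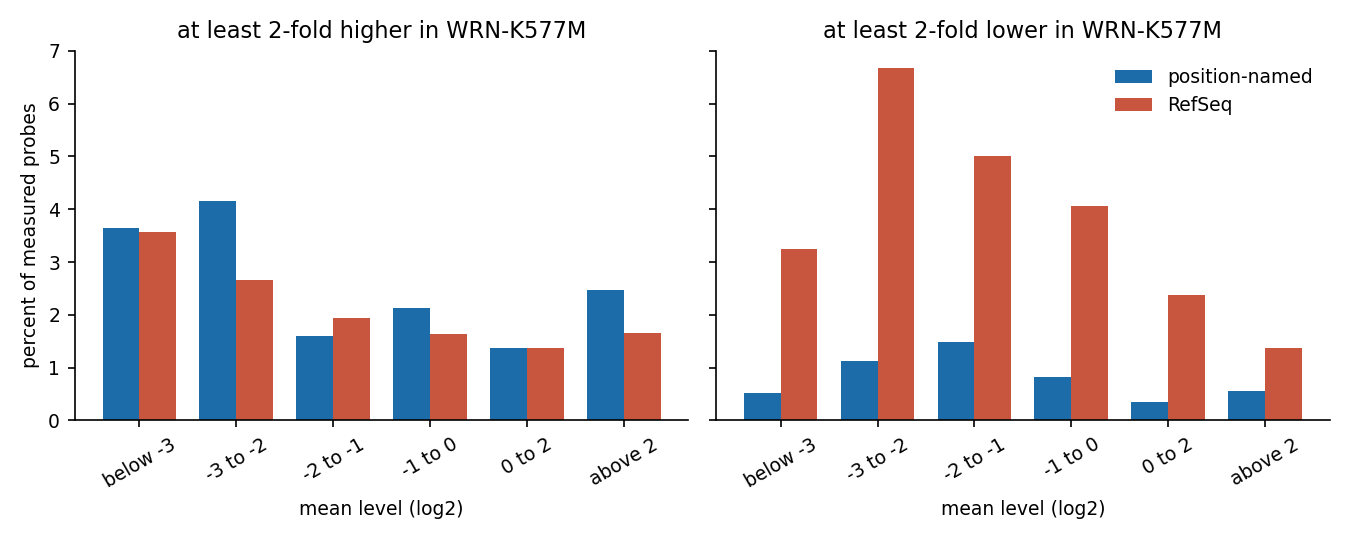
Percent of measured probes past 2-fold in WRN-K577M, higher in the left panel and lower in the right (y axis), by mean level of the probe on both arrays (x axis, log2), for interval probes (blue, position-named in the legend) and RefSeq probes (red). The lower shares of the interval probes, 0.344 to 1.48%, lie below those of RefSeq probes in all 6 ranges. The higher shares lie below those of RefSeq probes only from -2 to -1.

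Markers of several other cell types were lower in the WRN-K577M heart. None of the 12 cardiomyocyte markers passed 2-fold in either direction, and none of 6 endothelial markers did. Of the atrial markers 7 of 10 measured were lower, and their log2 summed level over all 12 on the array was 9.39 in the control and 7.43 in WRN-K577M. All 4 measured erythroid markers were lower (summed level 9.68 and 7.59), as were 6 of 9 fibroblast markers (8.38 and 7.86) and 4 of 8 macrophage markers (4.96 and 4.23). Of the adipocyte markers 5 of 6 measured were lower, with a median ratio of -2.93. Their summed level was 7.34 in the control and 7.62 in WRN-K577M and was mostly that of Fabp4 (7.07 and 7.59), a gene that endothelial cells also express. Of the neutrophil markers S100a8 and S100a9 were lower, with ratios of -4.98 each, and the third measured, Csf3r, read 7.53 and 7.74 (summed level 7.82 and 7.75). Of 4 B cell markers 1 was measured, with a ratio of -0.86 (summed level -0.51 and -1.59). Of 10 lung epithelium markers, 2 went undetected in the control and 8 in WRN-K577M (summed level 7.16 and 3.43). The sum in WRN-K577M was mostly that of Lamp3 (3.84 in the control and 3.37 in WRN-K577M). Sftpc read 5.96 in the control and was not detected in WRN-K577M, and Scgb1a1 read 5.76 and -2.02. The part of these marker genes in the ratios of the interval probes, or in the shares of RefSeq probes above, was not tested. A difference in the tissue that each sample held, fewer cells of a type and less RNA per cell cannot be told apart here.

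**Figure D3:**
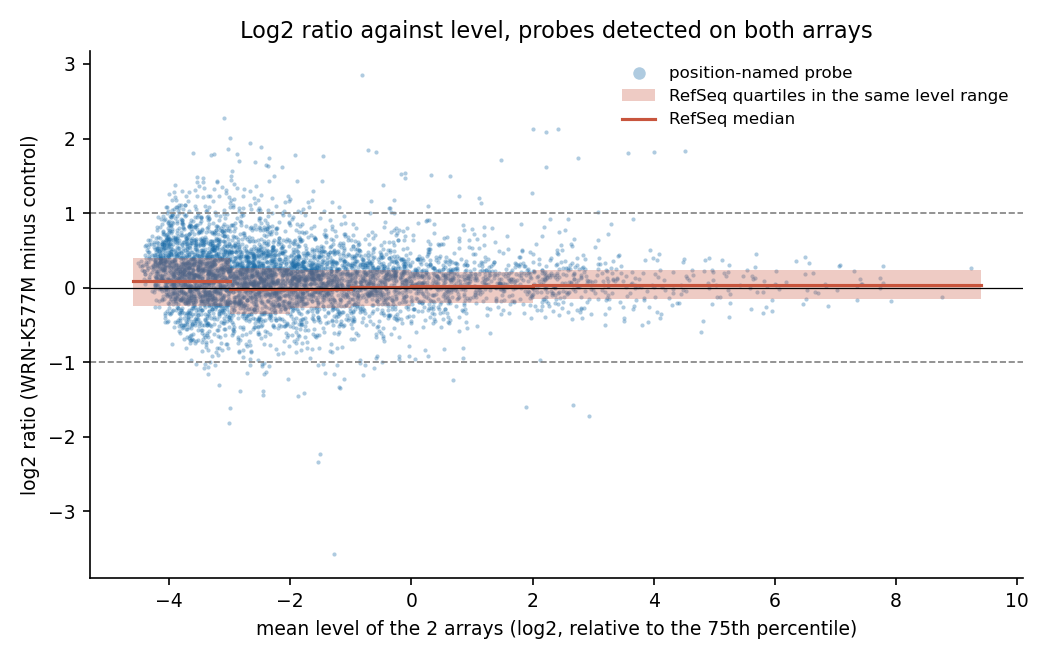
Log2 ratio of WRN-K577M over control (y axis) against mean level (x axis, log2) for the 5314 measured interval probes, 1 point a probe, with the 2-fold lines dashed at 1 and -1. The red line and band are the median and quartiles of measured RefSeq probes in the same ranges of level. More points lie past the upper dashed line (155) than past the lower one (44).

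Probes of the same interval give an internal comparison, although they share both arrays and, where they lie in 1 transcript, their target. In 1339 intervals on a strand 2 or more probes were measured, 4056 probes in all. The SD of the log2 ratio was 0.29 within these intervals and 0.43 over all their probes. In 802 of them (59.9%) all measured probes lay on 1 side of 0, with 604 above and 198 below. For the 540 intervals with 2 or more probes at a mean level of at least -2, the SD within was 0.18 and 373 lay on 1 side. In comparison, 269 measured probes of any kind that the array prints at 10 spots had a pooled SD of 0.13 between spots, rising to 0.31 for control levels under -3. No interval held a probe past 2-fold in each direction.

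The 155 higher probes lay in 105 of 2592 measured intervals on a strand, or 99 of 2010 loci once overlapping intervals of a strand were merged. An interval with several probes has more chances to hold one past 2-fold, and RefSeq probes were not counted in this way. With only the brightest probe of each interval and strand, 2.24% were higher and 0.617% lower. Equally dim RefSeq probes, 1 an accession, gave 2.46% and 4.53%. Of these probes, 134 had another measured probe in their interval. For 116 all the others lay on the same side of 0, and for 80 another was also past 2-fold. The 44 lower probes lay in 36 intervals and 34 loci. Of these, 34 had another measured probe, with all others on the same side for 25 and another past 2-fold for 12. In 19 intervals every measured probe, of at least 2, was 2-fold or more higher, and in 3 every one was 2-fold or more lower. These 22 intervals were singled out because their measured probes agreed, and 8 of them rest on 2 measured probes. Members of 1 chromosome are left out of the named intervals and probes that follow.

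The interval with the largest mean ratio was chr9:78107225-78118850 on the forward strand. Its 2 measured probes, of 5, went from 1.36 in the control to 3.49 in WRN-K577M and from 1.18 to 3.27, a mean ratio of 2.11 (4.32-fold). The only probe of the overlapping forward interval chr9:78104935-78116974 went from 0.94 to 3.07. All 3 readings were thus about 4-fold higher. The 5 reverse-strand probes of chr9:78107225-78118850 were not measured.

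On chromosome 6, 2 intervals of the reverse strand that lie 35871 bases apart were both higher. The 3 probes of chr6:31078802-31079644 went from 3.09 to 4.91, from 3.61 to 5.45 and from 2.67 to 4.48, a mean ratio of 1.82 (3.53-fold). Those of chr6:31115515-31168433 went from 0.63 to 2.34, from 1.89 to 3.62 and from 1.42 to 3.04, a mean ratio of 1.69 (3.22-fold). Ratios ran from 1.81 to 1.84 in the former interval and from 1.62 to 1.73 in the latter. A longer reverse interval that spans both, chr6:31017987-31174287, had 3 of 5 probes measured, with ratios of 0.78 to 0.86. The forward strand of that longer interval read between -0.04 and 0.53.

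A second pair that overlaps lies on chromosome 10, forward strand. The 3 probes of chr10:83185606-83225506 went from -0.93 to 0.59, from -0.84 to 0.63 and from -0.88 to 0.66, a mean ratio of 1.52 (2.86-fold). All 5 probes of chr10:83181374-83249774 were higher, with ratios of 1.24 to 1.78 and a mean of 1.48. On the reverse strand of the latter interval 2 measured probes read -0.13 and 0.18. A nearly equal forward interval, chr10:83181374-83249918, had 1 measured probe of 5, with a ratio of 0.16.

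Another bright interval was chr1:183832694-183834125, reverse strand. Its 3 probes went from 1.36 to 2.63, from 0.52 to 1.72 and from 0.58 to 1.71, a mean ratio of 1.20 (2.30-fold). Each was above the level of 0 in both hearts.

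The remaining higher intervals were mostly dim. At chr6:93029101-93031007, forward strand, 3 of 3 probes went from -2.95 to -1.33, from -3.69 to -2.0 and from -2.34 to -0.57. At chr14:115443612-115445950, forward, 3 of 3 were higher with a mean ratio of 1.69. An interval that contains it on the same strand, chr14:115423660-115463160, had 4 measured probes with ratios of -0.07 to 0.32. At chr8:59994102-59994797, forward, 2 of 3 were measured, with ratios of 1.43 and 1.88, and the undetected one read -5.15 and -5.08. None of the 5 forward probes of chr8:59994074-60002058, which contains that interval, was measured. At chr5:92556322-92558910, forward, the 3 ratios were 1.16, 1.79 and 1.82. A forward interval that contains it, chr5:92548501-92566401, had 2 of 6 probes measured, with ratios of 0.17 and 0.23. At chr3:30754871-30776438, forward, 2 probes of 3 went from -4.25 to -2.83 and from -3.91 to -2.59, near the limit of detection in the control. The others had mean ratios from 1.07 to 1.36, at mean control levels from -3.69 to -1.99. With the normexp correction these dim intervals fell under 2-fold, whereas those on chromosomes 1, 9 and 10 and the chromosome 6 pair did not.

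Lower values that all probes of an interval shared were seen at 3 intervals. At chr19:5834117-5835940, reverse strand, the 3 probes went from 3.79 to 2.07, from 3.47 to 1.89 and from 2.69 to 1.09, a mean ratio of -1.63 (3.10-fold lower). That interval lies 31520 bases from the brightest one, chr19:5801802-5802597, whose 3 ratios were 0.13 to 0.26 on the same strand. A longer interval that spans both, chr19:5771425-5848475, gave a ratio of -0.50 at its measured reverse probe. Its 10 forward probes were all measured and had ratios of 0.30 to 0.92. The strands of that stretch therefore differed in direction, and so did neighbouring intervals on 1 strand.

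At chr13:94180737-94182912, forward strand, 3 probes went from -0.24 to -1.29, from -0.85 to -1.99 and from -0.50 to -1.85, a mean ratio of -1.18. Adjoining forward intervals did not follow it: the 3 measured probes of chr13:94182877-94203852 had ratios of -0.06 to 0.08. At chr6:128393530-128394127, forward, 2 of 3 probes went from -0.51 to -1.73 and from -0.70 to -1.86, a mean ratio of -1.19. Only the chromosome 19 interval remained past 2-fold after the normexp correction.

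**Figure D4:**
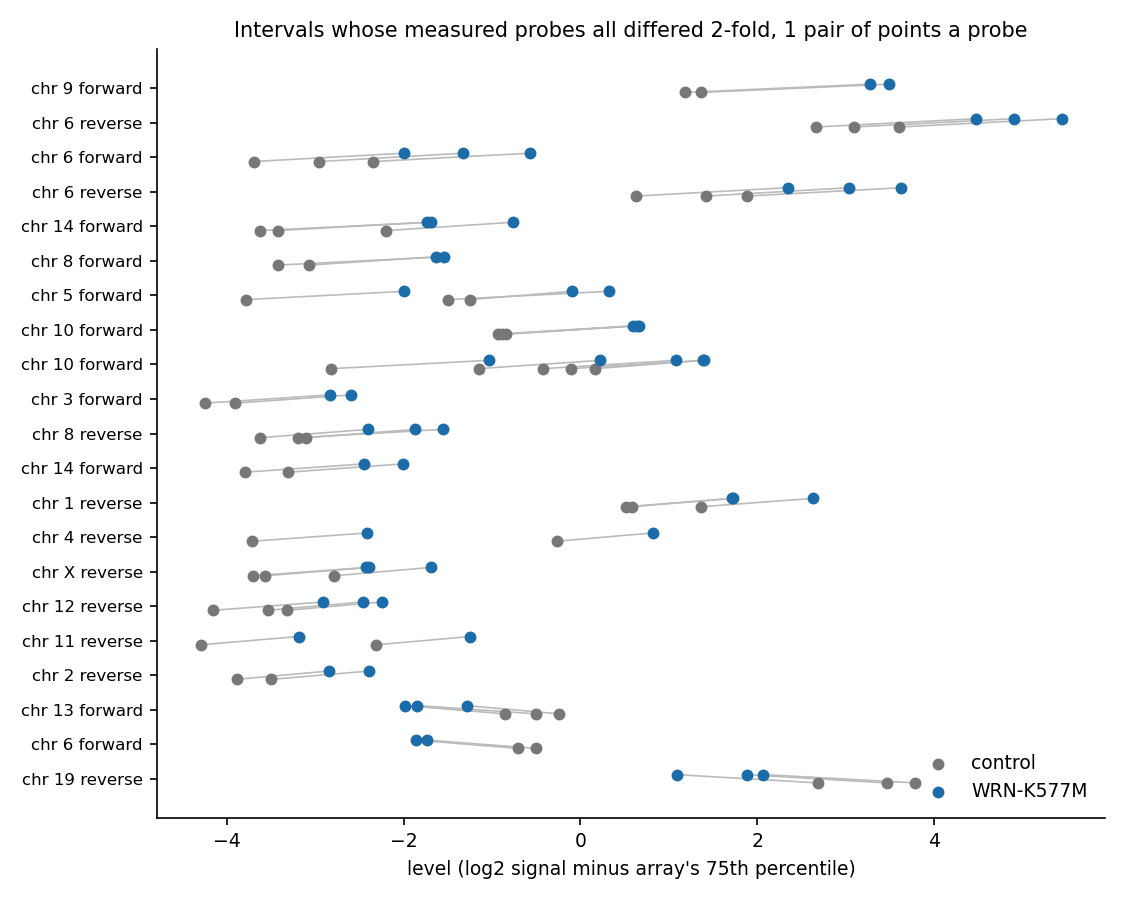
Level in the control (grey) and in WRN-K577M (blue) of every measured probe of intervals in which all measured probes passed 2-fold on 1 side (x axis, log2 relative to the 75th percentile), 1 row an interval, labelled by chromosome and strand, and 1 line a probe. The higher intervals are at the top and the 3 lower ones at the bottom. In the second row, chr6:31078802-31079644, the ratios are 1.81 to 1.84, and in the last, chr19:5834117-5835940, they are -1.72 to -1.58.

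Several of the largest single ratios were not shared by other probes of their interval. The largest higher ratio, on the reverse strand of chr11:97457180-97487074, went from -2.24 to 0.61, a 7.24-fold difference. The other measured probe of its 7 had a ratio of -0.57. At chr14:52864224-52878449, forward, a probe went from -4.23 to -1.95 while another measured probe had a ratio of 0.08. At chr6:67155508-67216941, forward, the values were 1.86 for the high probe and -0.19 for the other. At chr11:120041124-120052299, reverse, they were 1.85 and 0.04. That last interval also had 3 probes detected in WRN-K577M alone. A probe of chr15:82769917-82770296, reverse, went from -4.0 to -2.0, and the other 2 of that interval were not detected. With the normexp correction the single probes on chromosomes 14, 15 and 6 fell to 0.76, 0.66 and 0.76, and the 2 on chromosome 11 kept their call.

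Among the lower single probes reported here, several also stood alone. On the forward strand of chr15:101084597-101095097 a probe went from -0.36 to -2.70, while the other measured probes had ratios of 0.20 and -0.55. The remaining 2 probes of that interval were detected in the control alone. A forward probe of chr3:58118325-58136550 went from -0.39 to -2.63, and the other 4 of that interval were not detected. At chr8:106037800-106070025, forward, the ratios were -1.82 and 0.20. At chr3:88009045-88036270, forward, 1 probe of 10 had a ratio of -1.62, and the other 3 measured had 0.02 to 0.25. The only probe of chr10:69819062-69871640, forward, had a ratio of -1.46, and 1 of 4 at chr8:40238025-40264250, reverse, -1.45. With the normexp correction the probes at chr15:101084597-101095097 and chr3:58118325-58136550 stayed past 2-fold, while the others of this paragraph lay between -0.69 and -0.37.

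Probes detected in 1 heart give bounds only. For a bound, the level where the probe was seen was set against its level in the other heart, or against the lowest level flagged well above background there if that was higher, which was -4.73 in the control and -4.42 in WRN-K577M. Of 1038 such interval probes, 103 (9.92%) had a bound past 2-fold towards WRN-K577M and 44 (4.24%) one towards the control. Over all 2874 probes detected on 1 array the shares were 8.32 and 9.15%. A probe can have a bound only towards the heart that detected it. Of interval probes detected in WRN-K577M alone, 103 of 363 had such a bound, against 239 of 801 over all probes. For those detected in the control alone it was 44 of 675, against 263 of 2073. The counts over all probes were not matched for level, and the higher share is not read as above the background. As with the measured probes, the share that was lower was under the background.

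The largest bound towards WRN-K577M was on the reverse strand of chr7:140081171-140123058, with at least 11.48-fold more signal in WRN-K577M. A measured probe of the same interval read 2.95 and 3.20. Bounds of at least 7.83-fold at chr5:107503800-107515575 reverse, 5.70-fold at chr2:35828611-35838083 forward and 5.55-fold at chr12:81221532-81232030 forward were also found. At the first of these 2 other probes were measured, with ratios of 0.50 and 0.82, and at the second 2 with ratios of -0.13 and 0.05. On the lower side, a reverse probe of chr15:61984389-62102500 was at least 8.04-fold lower in WRN-K577M, while 2 others of that interval had ratios of 0.39 and -0.74. A forward probe of chr16:94775095-94775634 was at least 5.05-fold lower and a reverse probe of chr8:59966759-59989059 at least 3.99-fold lower.

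In one region several probes were seen in the control alone. At chr13:28490070-28492645, reverse strand, all 3 probes were detected in the control, at -2.95, -3.05 and -2.56, and none in WRN-K577M. This interval lies within chr13:28477490-28985604, whose reverse strand had 3 more probes detected in the control alone, at -2.05, -2.64 and -3.19. The first of these was at least 5.16-fold lower. A further probe of the longer interval read 2.58 in the control and 2.75 in WRN-K577M, a ratio of 0.17.

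Many intervals were probed on both strands, so the strands can be set side by side. Of 1067 such intervals, 458 had a measured probe on both strands, 443 on 1 strand (210 forward, 233 reverse) and 166 on neither. When most probes of a strand had to be measured, both strands passed in 85 intervals, 1 strand in 376 and neither in 606. Among the 458 intervals with a measured probe on both, 245 had a median ratio above 0 on both strands, 56 below 0 on both, and 157 on opposite sides. A probe at least 2-fold higher was present on both strands in 2 intervals and on 1 strand in 35. For lower probes it was 0 and 12 intervals. Pearson's r between the strands' median ratios of measured probes was 0.12, and 0.19 when undetected probes were included. Both are descriptions across intervals that share the 2 arrays.

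The 5 intervals with the widest gap between the strands' median signals, among those reported here, follow with their probes. At chr3:21964899-21974524 all 5 reverse probes were measured, from 2.02 to 3.30 in the control and 1.89 to 3.20 in WRN-K577M. Of the 5 forward probes 1 was measured, at -1.42 and -1.55. At chr4:136856064-136877219 the 5 reverse probes lay between 2.97 and 4.88 in the control, and 1 of 5 forward probes was measured, at -2.79. At chr6:11996975-12037300 4 of the 5 forward probes lay between 2.41 and 3.38 in the control and were all lower in WRN-K577M, by 0.28 to 0.39. The only measured reverse probe there read -4.42 and -3.83. At chr11:22681800-22707775 the single reverse probe read 6.93 and 7.23, and the 2 forward probes -3.64 and -0.71 in the control. At chr16:32309935-32328234 the single reverse probe read 3.67 and 3.70, and the 4 measured forward probes lay between -4.25 and -3.34 in the control. Some of these strands rest on 1 probe, and probes of 1 strand also differed widely, with an SD of mean level of 1.52 within an interval and strand, so the gaps are differences between probes and no measure of strand.

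**Figure D5:**
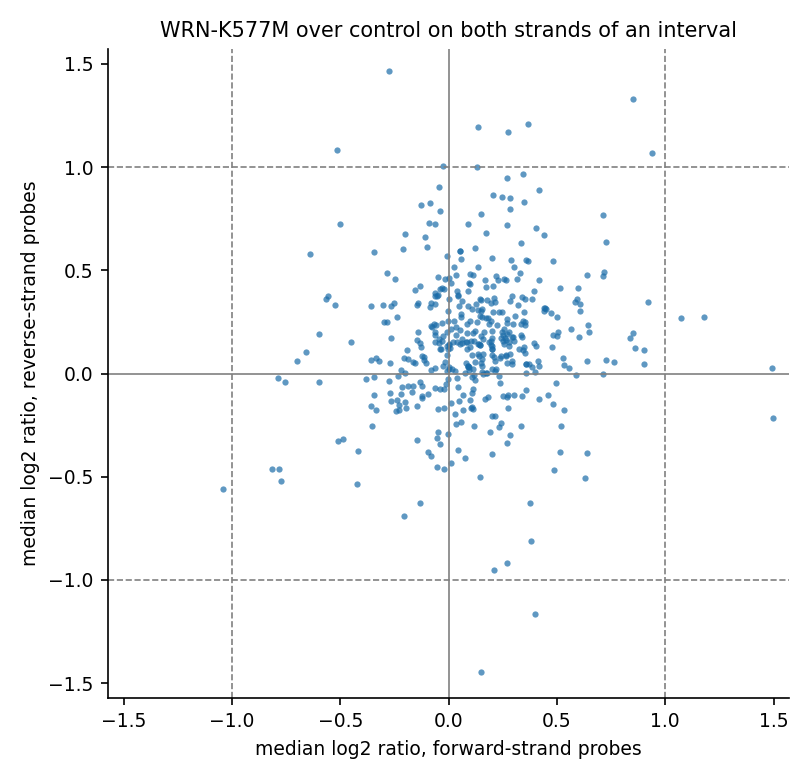
Median log2 ratio of WRN-K577M over control of the measured forward-strand probes (x axis) and reverse-strand probes (y axis), 1 point for each of the 458 intervals with a measured probe on both strands, with 2-fold lines dashed at 1 and -1. Above 0 on both axes lie 245 points, and 157 lie on opposite sides of 0.

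Intervals near each other on a strand seldom shared a 2-fold difference. Joining intervals within 50 kb gave 1090 clusters of 2 or more, of which 517 had at least 2 intervals with a measured probe. In 314 of these all medians lay on 1 side of 0. In 1 cluster, that on chromosome 9, every measured interval was 2-fold higher, and in none was every one lower. By chromosome, the share of measured probes that was 2-fold higher ran from 0 to 6.15%. Chromosome 8 had 19 higher of 325 measured (5.85%) and 3 lower, and chromosome 6 had 18 of 324 (5.56%) and 3. Chromosome 16 had none past 2-fold among 198 measured, and chromosome 19 had 1 higher and 4 lower. Over all 5314 measured interval probes the shares were 2.92% higher and 0.828% lower. Probes of 1 interval are counted apart here: each interval of the chromosome 6 pair above gave 3 higher probes, and chr19:5834117-5835940 gave 3 lower ones. Shares over all kinds of probes of a chromosome were not computed, so no difference between chromosomes is read from these counts. Median ratios of the chromosomes ran from 0.08 to 0.19, all above 0.

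Long non-coding RNAs that the array does name by gene are given beside the intervals. Their positions were not compared with the intervals, so some of them may share a transcript with an interval above. Of 46 genes on a list of known long non-coding RNAs, 27 had a RefSeq probe and 22 were measured, with a median ratio of 0.21. Lncpint, an RNA induced by p53, was higher (1.72 in the control, 3.53 in WRN-K577M), as was Neat1, the scaffold of nuclear paraspeckles (6.63 and 7.65). Mhrt, an antisense RNA of the Myh7 locus that binds the Brg1 remodeller in heart, was lower (6.14 and 4.87). The ratios of Snhg1, a host gene of small nucleolar RNAs, and of Mirg, an imprinted microRNA host, were 0.75 and -0.68. The 2 of 22 higher and 1 of 22 lower compare with 2.19% and 2.51% over all measured probes, and the list is too short to read a share from.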

How the data were processed

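One Cy3 array a group was analysed, and groups were taken from the genotype in the labels. The spot files hold intensity values, per the file headers, from version 11.5.1.1 of Agilent Feature Extraction: a processed signal that is background-subtracted and detrended but not scaled between arrays, the median spot and background intensity, and flags of 0 or 1. The deposited series matrix holds the same processed intensity times 1 factor an array, 4.12 for the control and 4.86 for WRN-K577M. Both arrays lay on 1 slide and in 1 scan.

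Levels were computed as log2 of the processed signal minus the 75th percentile over 59305 non-control spots. After that, 257 outlier spots were left out, none of them an interval probe. No spot was saturated. Measured meant well above background on both arrays, and 2-fold was the call. Probe sequences and an mm9 genome were not used here, so cross-hybridisation and the genes at each interval were not analysed. Of 22460 RefSeq accessions, 22186 were matched to symbols, which named 27963 of 28290 probes. Named probes were the 10 highest and 10 lowest ratios, the 10 brightest, the 5 largest bounds each way, up to 10 intervals each way whose measured probes all passed 2-fold, the 5 largest strand differences and up to 5 known long non-coding RNAs. The chromosome 1 interval, the comparison of strand ratios, the summary of the other agreeing intervals and the neighbours of named intervals were added after their values were seen. Members of 1 chromosome that came up under these rules are not reported here. Members, lists and rules were chosen with earlier results of these data known. Alternatives were other background corrections, scalings, detection flags, filters, folds and units of counting. The count script was tested on simulated data. Python 3.11.15, numpy 2.4.6, pandas 2.3.3, scipy 1.17.1, matplotlib 3.10.9, R 4.3.3 and limma 3.58.1 were used.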

Additional observations from a re-analysis of the deposited data

How the results depend on the processing

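The median ratio of interval probes stayed above 0 in every setting. That of equally dim RefSeq probes, 0.03, was -0.04 after cyclic loess, -0.01 with the arrays' medians as scale and -0.02 in the deposited matrix. With the normexp background correction it was also above 0, at 0.14 against 0.18 for interval probes. The counts of interval probes past 2-fold, 155 higher and 44 lower, became 21 and 7 with the normexp background correction, where the median ratio was 0.18 and equally dim RefSeq probes gave 0.334 and 0.649%. Without the filter on detection they were 1788 and 464 of 16194 (median 0.35, RefSeq median 0.33, RefSeq 9.45 and 6.45%). With a mean level of at least -2 they were 44 and 22 of 2433, or 1.81 and 0.904% (median 0.10, RefSeq 1.70 and 3.63%). At 1.5-fold they were 621 and 187 (RefSeq 9.72 and 10.9%), and at 3-fold 29 and 7 (RefSeq 0.544 and 1.13%). With 1 value an interval and strand they were 58 and 16 of 2593, or 2.24 and 0.617% (median 0.12, RefSeq 2.46 and 4.53%). The higher share was then under that of equally dim RefSeq probes. Of 2010 measured non-overlapping loci, 99 held higher probes and 34 lower ones, an alternative chosen after seeing the data. RefSeq probes were not counted by locus. The median ratio was 0.070 after cyclic loess, 0.095 with the arrays' medians as scale, 0.086 in the deposited matrix, and 0.073 relative to all measured probes, which was also chosen after seeing the data. RefSeq non-coding transcripts alone gave 4.93 and 2.21%. With the weaker detection flag (positive and significant) 63.5% of interval probes were detected in the control and 65.7% in WRN-K577M, so the order of the hearts turned, and the cause was not tested. By interval, 65.2 and 62.6% had a detected probe. With the 5th percentile as floor, 39 bounds of 1038 interval probes were past 2-fold higher and 8 lower. The shares over all probes were not computed at that floor. At a mean level of at least -2, 69.1% of intervals had all probes on 1 side of 0. In each setting that gave both, the interval probes' lower share was under that of equally dim RefSeq probes. Of 42 named probes and intervals with a call, 24 fell under 2-fold with normexp and 2 with cyclic loess, and none with quantile scaling or the deposited matrix. No paired analysis was possible because each group has 1 array. Signal over background is the limit: 60.8% of interval probes were well above background on neither array.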

Other observations

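The lengths of the intervals fell into at least a pair of kinds. In 1027 of 3540 intervals (29.0%) the end minus the start was a whole multiple of 25 bases, and 728 of these carried probes for both strands, against 339 of the other 2513. Their median length was 17801 bases, against 2716 for the others. Probes of the former were measured in 32.5% of cases and those of the latter in 33.1%. Of the measured probes, 2.46% and 3.29% were at least 2-fold higher in WRN-K577M and 1.02% and 0.678% at least 2-fold lower.

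At chr12:73860757-73862034, reverse strand, 3 of 3 probes were higher in WRN-K577M, from -3.32 to -2.24, from -4.15 to -2.92 and from -3.54 to -2.46. This interval lies within chr12:73838608-73862621, whose 3 measured reverse probes, the very bright one included, had ratios of -0.05 to 0.05. The interval was chosen after its values were seen, and it fell under 2-fold with the normexp background correction.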
